A study of Mus musculus with 24 samples.

Results

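The plasminogen activator system was followed here through 6 genes in cultured mouse alveolar epithelial cells, 6 of the 55421 mouse genes in the deposited count table. The members were taken by name under a rule that uses no measured value, although the list was drawn up with earlier results of these data known. They are the protease genes Plau and Plat, the receptor gene Plaur, the inhibitor genes Serpinb2 and Serpine2, and F3, which encodes the receptor that starts coagulation. All 6 passed the filter on low counts and were tested, Plau and Serpinb2 only through the cultured groups. Plau, Plaur, Serpinb2 and F3 rose on day 1 of culture in cells of both genotypes and were still far above the fresh cells on day 7. Serpine2 fell, and Plat passed the main test at no step. The fall of Plat from day 3 to day 7 in Krt8-/- cells passed in a fit with the label date as a block. No member passed the test between Krt8-/- and Krt8+/+ cells.

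Alveolar epithelial type 2 cells (AEC2s) are the surfactant-making progenitors of the alveolus. They were isolated from Krt8+/+ mice (wild type) and from Krt8-/- mice (a knockout of the keratin 8 gene that is not limited to 1 cell type), and RNA was harvested from the fresh cells (day 0) or after 1, 3 or 7 days on a flat culture surface. The 8 groups of genotype and day held 3 libraries each, 1 for each of 3 dates in the labels, which makes 24 libraries. The labels do not say what the date marks, and each date is called an isolation here. The labels name no added agent in any group and give neither strain nor age of the mice.

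Depth lay between 10184439 and 19483386 counts a library. Levels are given as CPM, counts divided by the TMM-scaled library total and multiplied by 1e+06. Krt8 was at 485 to 552 CPM in fresh Krt8+/+ AEC2s and at 2599 to 5092 CPM on later days, against 21.2 to 47.4 CPM in all Krt8-/- libraries. The summed level of 8 AEC2 markers, among them Sftpc, was at least 229208 CPM in each fresh library and at most 253 CPM on day 7, so the label AEC2 describes the fresh cells. The summed level of 5 markers of the transitional alveolar state rose from 455 to 686 CPM in the fresh libraries to 2944 to 7493 CPM on day 7. Markers of alveolar epithelial type 1 cells (7 genes) summed to 3282 to 4275 CPM on day 0, 1165 to 1678 CPM on day 1 and 2365 to 4060 CPM on day 7. Fibroblast markers (8 genes) summed to 296 to 994 CPM on day 0, 98.2 to 261 CPM on day 1 and 835 to 3178 CPM on day 7, and macrophage markers (9 genes) to 139 CPM at most. The 4 mesothelial markers summed to 66.3 to 205 CPM on day 0 and 879 to 2454 CPM on day 7, where Msln made up nearly all of the sum, Upk3b was at most 1.82 CPM (33.5 to 92.8 CPM on day 0) and Wt1 at most 1.66 CPM. Summed neutrophil markers (5 genes) were at most 4.90 CPM and endothelial markers (7 genes) at most 34.4 CPM. In isolation 1 the genotypes were not matched for sex: 4 Y-linked genes summed to 173 to 191 CPM in its Krt8-/- libraries and to at most 0.441 CPM in its Krt8+/+ libraries, and Xist, the female-specific transcript, was at 5.92 to 12.0 CPM in the former and 62.4 to 79.5 CPM in the latter. The part of this in any genotype difference was not tested.

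Plasminogen is a circulating zymogen that is cut into plasmin, the protease that dissolves fibrin and opens matrix around moving cells. Urokinase, made from Plau and held at the cell surface by its receptor uPAR (Plaur), and tissue-type activator (Plat) make that cut, and inhibitors of the serpin family block them. Tissue factor (F3) binds factor VII and starts the clotting cascade that lays fibrin down, and the balance of clotting and fibrinolysis in the alveolus is known to shift in lung injury and fibrosis.

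The promoter windows are shown because 3 of the 4 members that rose have one in the RefSeq table used, and each of these 3 held the same short motif. The windows are the 250 bases before the annotated start on GRCm38.p6, from RefSeq, read 5′ to 3′ on the strand of the gene, which is the plus strand for all 3. They lie at chr7:24462233-24462482 (Plaur), chr1:107511173-107511422 (Serpinb2) and chr3:121723287-121723536 (F3), and capitals mark matches to TGANTCA, the motif bound by AP-1, a family of Fos and Jun factors.
Plaur: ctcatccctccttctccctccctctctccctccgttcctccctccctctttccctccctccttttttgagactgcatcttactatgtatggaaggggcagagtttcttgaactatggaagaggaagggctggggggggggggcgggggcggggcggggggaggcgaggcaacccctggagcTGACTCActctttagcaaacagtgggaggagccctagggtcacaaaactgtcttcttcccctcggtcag
Serpinb2: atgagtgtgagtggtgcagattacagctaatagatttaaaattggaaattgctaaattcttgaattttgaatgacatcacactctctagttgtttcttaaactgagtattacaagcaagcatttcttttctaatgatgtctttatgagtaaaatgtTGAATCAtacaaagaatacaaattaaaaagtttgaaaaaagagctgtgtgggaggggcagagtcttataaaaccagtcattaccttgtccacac
F3: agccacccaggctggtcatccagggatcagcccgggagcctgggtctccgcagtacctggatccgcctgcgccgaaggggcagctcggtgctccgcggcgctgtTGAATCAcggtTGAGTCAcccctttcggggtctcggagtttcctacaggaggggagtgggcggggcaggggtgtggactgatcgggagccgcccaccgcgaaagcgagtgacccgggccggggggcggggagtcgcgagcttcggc
The motif reads the same on both strands. Counted back from the start, the match lay at -69 to -63 in Plaur, at -94 to -88 in Serpinb2, and at -146 to -140 and -135 to -129 in F3. The table holds a start further downstream for Serpinb2 too, with its window at chr1:107511260-107511509, from which the same match lies at -181 to -175. The motif was absent from the window of Serpine2. Plau and Plat have no window in the table used, so they could not be searched. Of the 32851 promoter windows in the RefSeq table, 6.75% held this motif. The looser NF-kB motif, GGG and CC with any 5 bases between them, searched on both strands, was in the windows of Plaur, F3 and Serpine2, and in 45.8% of all windows. Matches to TGACGTCA (CRE), GGAATG (TEAD), CAGACA (SMAD box) and CACGTG (E-box) were in none of these 4 windows, while 1.55%, 12.6%, 17.1% and 6.02% of all windows held them. The start of the F3 window overlaps Gm43823, an unclassified gene on the opposite strand. Matching letters describe the window and do not show that a factor was bound.

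Counted over the 6 members with edgeR's quasi-likelihood F test at an adjusted p under 0.05, 4 rose from day 0 to day 1 in Krt8+/+ cells, where 54.7% of the 18046 genes tested were called and 26.2% rose. The same step in Krt8-/- cells was also called higher for 4 members, with 50.6% of all genes called and 23.7% higher. From day 1 to day 3, 1 member rose and 1 fell in Krt8+/+ cells (26.3% of all genes called, 14.4% higher and 11.9% lower), and 2 rose and 1 fell in Krt8-/- cells (23.6%, 13.4% higher and 10.2% lower). From day 3 to day 7, no member was called in Krt8+/+ cells (6.58% of all genes), and 1 fell in Krt8-/- cells (10.5%, 6.15% lower). In Krt8+/+ cells 2 members were at an unadjusted p under 0.05 by edgeR, as were 3468 of the 18046 genes. DESeq2 called no member there and 1729 genes in all. The count of this step in Krt8-/- cells changed with the fit. With isolation as a block 1 member was called higher and 2 lower, beside 952 higher and 1299 lower of the 18046 genes. DESeq2 called 1 higher and 1 lower, beside 1068 higher and 1444 lower of the same genes. No member was called without isolation 1 (834 of 17989 genes) or without isolation 2 (969 of 18523 genes). Day 7 against day 0 gave 4 members higher and 1 lower in Krt8+/+ cells (58.8% of all genes called, 28.6% higher and 30.2% lower) and in Krt8-/- cells (58.5%, 28.6% higher and 29.9% lower). The median log2 difference of the 6 members on day 1 against day 0 was 5.26 in Krt8+/+ cells, where that of all genes was 0.00. On day 7 against day 0 the members' median was 6.27, again beside 0.00. With Plau and Serpinb2 of Krt8-/- cells set at their lower bounds because they had no count on day 0, the members' medians were 5.09 on day 1 and 6.53 on day 7, beside -0.01 and 0.00 for all genes. Comparisons with day 0 share the day 0 libraries. Plau and Serpinb2 passed the filter only through the cultured groups, so against day 0 they could only come out higher.

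**Figure D1:**
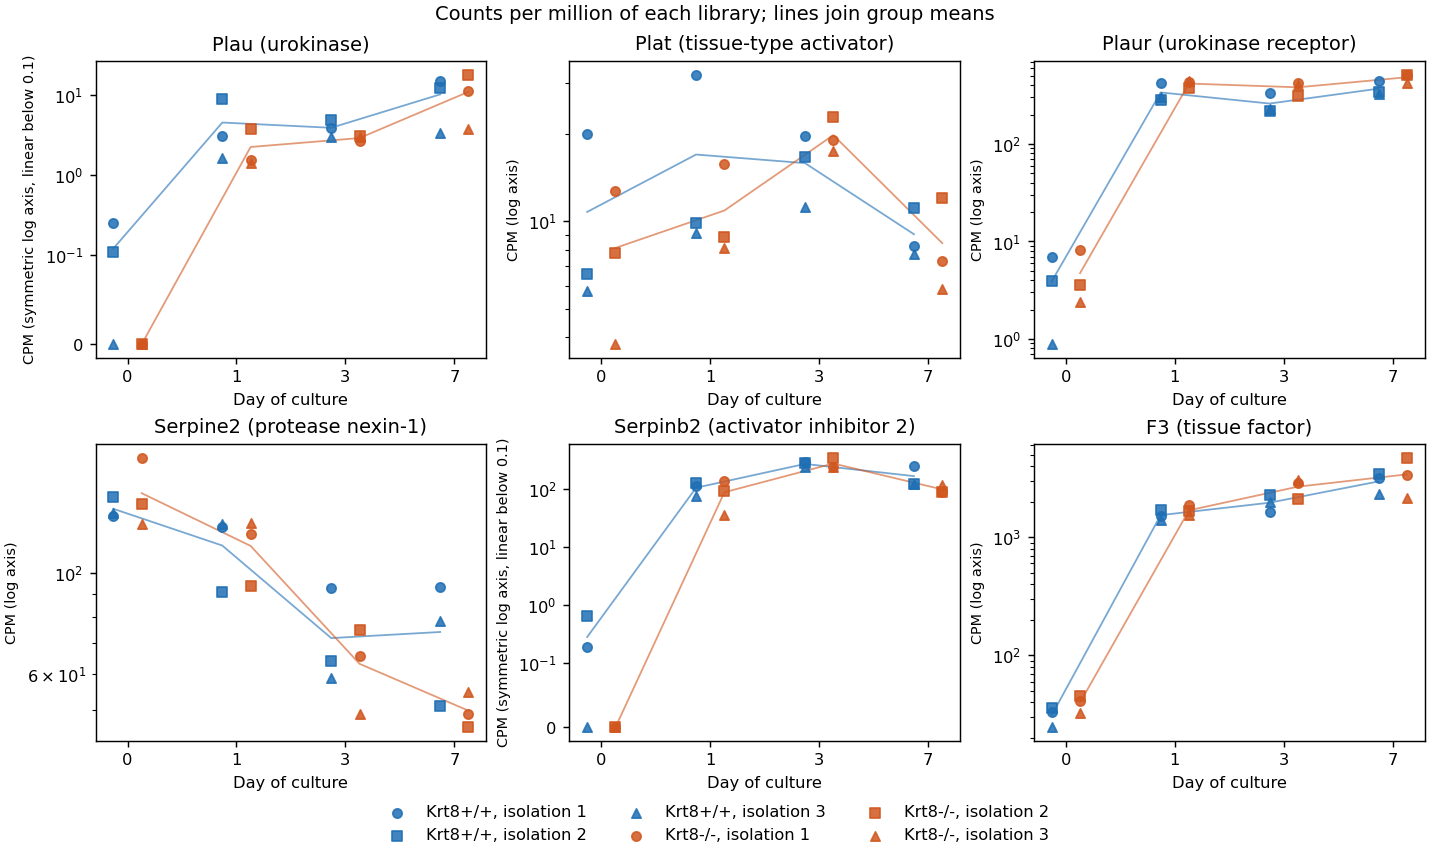
Levels in CPM (log axes) of the 6 members in each of the 24 libraries by day of culture. Symbols mark the isolations, colours the genotypes, and lines join the means of 3 libraries. The axes of Plau and Serpinb2 are linear below 0.1 so that libraries with no count can be drawn at 0. Plaur, Serpinb2 and F3 stand far above day 0 from day 1 on in both genotypes, Serpine2 declines, and Plat stays between 3.79 and 31.9 CPM.

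Plau (ENSMUSG00000021822, chr14:20836660-20843385, plus strand, GRCm38) encodes urokinase. It was close to undetected in fresh cells, with 4, 1 and 0 counts in the Krt8+/+ libraries of isolations 1, 2 and 3 and no count in the 3 Krt8-/- libraries. A group with no count allows up to 0.0817 CPM by a floor of 3 counts over the group, which covers counting error only. In Krt8+/+ cells, Plau was at 3.08, 8.78 and 1.63 CPM on day 1 in isolations 1, 2 and 3, at 3.80, 4.80 and 3.01 CPM on day 3, and at 14.8, 12.1 and 3.31 CPM on day 7. Every cultured library was above every fresh one. In Krt8-/- cells it was at 1.52, 3.76 and 1.40 CPM on day 1, 2.67, 3.01 and 2.96 CPM on day 3 and 11.1, 17.8 and 3.70 CPM on day 7. The log2 difference of day 1 from day 0 in Krt8+/+ cells was 4.90 (SE 0.92, edgeR adjusted p = 2.1e-04), and that of day 7 was 6.07 (SE 0.92, edgeR adjusted p = 1.5e-05). With so few counts on day 0 the size is loose, and the day 1 difference was 6.34 without isolation 1 and 3.96 without isolation 2. Plau was at least 27.3-fold higher on day 1 and at least 133-fold higher on day 7 in Krt8-/- cells, both against the floor. From day 3 to day 7 it was higher in 3 of 3 isolations of both genotypes, by a log2 difference of 1.38 (edgeR adjusted p = 0.244) in Krt8+/+ and 1.91 (adjusted p = 0.0712) in Krt8-/- cells. The Krt8-/- difference passed with isolation as a block (adjusted p = 0.0299). Isolation 2 was the highest on day 1 and isolation 3 the lowest on day 7 in both genotypes. Fibroblast markers moved the other way on day 7. They summed to 899, 1002 and 1911 CPM in Krt8+/+ libraries of isolations 1, 2 and 3. In Krt8-/- libraries they summed to 957, 835 and 3178 CPM. On day 1 isolation 2 had the lowest sums of AEC2 markers, at 15227 CPM (Krt8+/+) and 14380 CPM (Krt8-/-). Isolations 1 and 3 were at 63975 to 88902 CPM on that day. The part of these markers in the Plau levels was not tested.

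Plat (ENSMUSG00000031538, chr8:22757727-22782844, plus strand) encodes the tissue-type activator, which acts best on fibrin. In Krt8+/+ cells it was at 20.0, 6.61 and 5.76 CPM on day 0 in isolations 1, 2 and 3, 31.9, 9.86 and 9.10 CPM on day 1, 19.7, 16.7 and 11.2 CPM on day 3 and 8.24, 11.1 and 7.75 CPM on day 7. Isolation 1 was the highest of the 3 until day 3, and on days 0 and 1 it stood well apart from the other isolations. In Krt8-/- cells it was at 12.7, 7.80 and 3.79 CPM on day 0, 15.8, 8.82 and 8.10 CPM on day 1, 19.1, 22.8 and 17.5 CPM on day 3 and 7.32, 12.1 and 5.87 CPM on day 7. The 3 values of day 3 were above all values of days 1 and 7 in Krt8-/- cells. Neither step passed the test, with a log2 difference of 0.86 (SE 0.51, edgeR adjusted p = 0.228) into day 3 and -1.24 (SE 0.51, edgeR adjusted p = 0.137) out of it. With isolation as a block the fall after day 3 passed (log2 difference -1.26, adjusted p = 0.0323). Day 7 against day 0 differed by -0.28 in Krt8+/+ cells (95% interval -1.36 to 0.81) and 0.05 in Krt8-/- cells (95% interval -1.04 to 1.14). Macrophage markers were also highest in isolation 1, at 139, 54.0 and 18.3 CPM on day 1 in Krt8+/+ libraries of isolations 1, 2 and 3. So were fibroblast markers in Krt8+/+ libraries, at 994, 507 and 296 CPM on day 0 and 261, 164 and 143 CPM on day 1. Mesothelial markers were highest in isolation 1 on day 0 (205, 114 and 66.3 CPM) but lowest there on day 1 (193, 360 and 297 CPM). The part of these markers in the Plat level was not tested.

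Plaur (ENSMUSG00000046223, chr7:24462484-24475968, plus strand) encodes uPAR, the membrane-anchored receptor that holds urokinase. Fresh Krt8+/+ AEC2s had 6.93, 3.90 and 0.886 CPM in isolations 1, 2 and 3, and fresh Krt8-/- AEC2s 8.28, 3.54 and 2.39 CPM. On day 1 the levels were 421, 285 and 306 CPM in Krt8+/+ and 431, 372 and 445 CPM in Krt8-/- cells. Days 3 and 7 stayed between 217 and 514 CPM in both genotypes. On day 3 Krt8+/+ cells had 335, 217 and 226 CPM and Krt8-/- cells 425, 312 and 405 CPM. On day 7 the values were 439.6, 340.1 and 326 CPM in Krt8+/+ and 511, 514 and 423 CPM in Krt8-/- cells. No cultured library came near a fresh one. The log2 difference of day 1 from day 0 was 6.35 in Krt8+/+ cells (SE 0.47, edgeR adjusted p = 1.8e-09), a ratio of mean CPM of 86.4, and 6.43 in Krt8-/- cells (SE 0.47, adjusted p = 1.7e-09). The steps from day 1 to day 3 and from day 3 to day 7 passed the test in neither genotype. In bulk RNA, more cells that express a gene and more RNA of it per cell cannot be told apart.

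Serpinb2 (ENSMUSG00000062345, chr1:107511423-107535478, plus strand) encodes plasminogen activator inhibitor 2, which blocks urokinase and is mostly kept inside the cell. Serpinb10, a polymorphic pseudogene in this annotation, overlaps it on the same strand, so reads shared by the 2 genes could be split between them. On day 0, 3, 6 and 0 counts were found in the Krt8+/+ libraries of isolations 1, 2 and 3 and none in the Krt8-/- libraries. On day 1 it was at 111, 129.8 and 76.9 CPM in Krt8+/+ and 137, 92.0 and 36.4 CPM in Krt8-/- cells. It went on to peak on day 3, at 289, 289 and 241 CPM in Krt8+/+ and 246, 350.5 and 237 CPM in Krt8-/- cells. On day 7 it was at 255, 125 and 125 CPM in Krt8+/+ and 89.2, 91.2 and 117 CPM in Krt8-/- cells. The day 1 difference was 8.59 on the log2 scale in Krt8+/+ cells (SE 0.64, edgeR adjusted p = 4.9e-09), and in Krt8-/- cells the level was at least 1084-fold higher than the floor of day 0. The further rise to day 3 was 1.37 (SE 0.38, edgeR adjusted p = 0.0126) in Krt8+/+ and 1.65 (SE 0.38, adjusted p = 0.00434) in Krt8-/- cells, with no overlap between days in either genotype. In Krt8+/+ cells this call was lost without isolation 1 (edgeR adjusted p = 0.0513) or isolation 2 (0.0695), and in Krt8-/- cells without isolation 2 (0.0758). From day 3 to day 7 Serpinb2 fell in Krt8-/- cells, by 1.49 on the log2 scale (SE 0.38, edgeR adjusted p = 0.0157), with 3 of 3 isolations lower. This call was lost without isolation 1 (edgeR adjusted p = 0.0797) and without isolation 2 (0.199). In Krt8+/+ cells the same step was -0.70 (edgeR adjusted p = 0.33), lower in 3 of 3 isolations, with isolation 1 still at 255 CPM and the days overlapping. The difference between the genotypes in this step was not tested by itself.

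Serpine2 (ENSMUSG00000026249, chr1:79794197-79861180, minus strand) encodes protease nexin-1, a secreted inhibitor of thrombin, urokinase and plasmin. It was the member that fell. In Krt8+/+ cells it was at 133, 146 and 135 CPM on day 0 in isolations 1, 2 and 3, 126, 90.6 and 128 CPM on day 1, 92.7, 64.2 and 58.8 CPM on day 3 and 92.9, 51.1 and 78.5 CPM on day 7. In Krt8-/- cells the series was 179, 142 and 128 CPM, 122, 93.6 and 128 CPM, 65.6, 74.9 and 49.0 CPM and 48.9, 45.9 and 54.8 CPM on the same days. All day 7 values were below all day 0 values in both genotypes. The first day brought no call, and the step from day 1 to day 3 was called lower in both, at -0.67 (SE 0.22, edgeR adjusted p = 0.0255) in Krt8+/+ and -0.86 (SE 0.22, adjusted p = 0.00688) in Krt8-/- cells. The Krt8+/+ call was lost without isolation 3 (edgeR adjusted p = 0.282), and the Krt8-/- call without isolation 1 (0.0571) or isolation 3 (0.175). Over the whole culture it fell by 0.90 on the log2 scale in Krt8+/+ cells (SE 0.22, edgeR adjusted p = 0.00132) and by 1.58 in Krt8-/- cells (SE 0.22, adjusted p = 3.4e-06). Without isolation 2 the Krt8+/+ difference was -0.58 and just missed the threshold (edgeR adjusted p = 0.0512).

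F3 (ENSMUSG00000028128, chr3:121723537-121735048, plus strand) encodes tissue factor. Per length, it had the highest level of the 6 members in every cultured library. Fresh Krt8+/+ AEC2s had 33.1, 35.6 and 24.6 CPM in isolations 1, 2 and 3, and fresh Krt8-/- AEC2s 41.2, 45.7 and 32.7 CPM. On day 1 Krt8+/+ cells had 1526, 1691 and 1399 CPM and Krt8-/- cells 1866, 1666 and 1539 CPM. The isolations lay close together on that day, far above the fresh libraries. On day 3 the levels were 1625, 2285 and 1971 CPM and 2863, 2103 and 3074 CPM, and on day 7 they were 3188, 3406 and 2314 CPM and 3360.4, 4718 and 2143 CPM, in Krt8+/+ and Krt8-/- cells. The log2 difference of day 1 from day 0 was 5.63 in Krt8+/+ cells (SE 0.29, edgeR adjusted p = 1.0e-11), a ratio of mean CPM of 49.5, and 5.41 in Krt8-/- cells (SE 0.28, adjusted p = 1.6e-11). Group means were higher on day 3 than on day 1, and on day 7 than on day 3, in both genotypes. The last step passed the test in neither, and in Krt8-/- cells isolation 3 was lower on day 7 than on day 3, with a log2 difference of 0.35 over the 3 isolations and -0.11 without isolation 2. The step to day 3 passed in Krt8-/- cells only, at 0.67 (SE 0.23, edgeR adjusted p = 0.0447), against 0.35 (adjusted p = 0.283) in Krt8+/+ cells, and the difference between the genotypes in this step was not tested by itself. The Krt8-/- call was lost with DESeq2's size factors (edgeR adjusted p = 0.0611), without isolation 1 (0.219) and without isolation 3 (0.184). By day 7 the log2 difference from day 0 was 6.58 in Krt8+/+ cells (SE 0.30, edgeR adjusted p = 1.6e-12) and 6.42 in Krt8-/- cells (SE 0.30, adjusted p = 1.7e-12). F3 alone then took 0.244% to 0.351% of the counts of a Krt8+/+ library and 0.228% to 0.474% of those of a Krt8-/- library. Isolation 3 was the lowest on day 7 in both genotypes, as it was for Plau, beside the fibroblast marker sums given there. Its libraries also had the lowest sums of 3 epithelial markers on day 7, at 820.3 CPM against 1159 and 1199.7 CPM in Krt8+/+ and 755 CPM against 1199 and 1575 CPM in Krt8-/- cells. Transitional markers were likewise lowest there, at 4429.6 CPM (Krt8+/+) and 2944 CPM (Krt8-/-). The Y-linked genes summed to 208 and 199 CPM in these libraries and to at most 0.166 CPM in those of isolation 2. The part of these differences in the F3 and Plau levels was not tested.

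**Figure D2:**
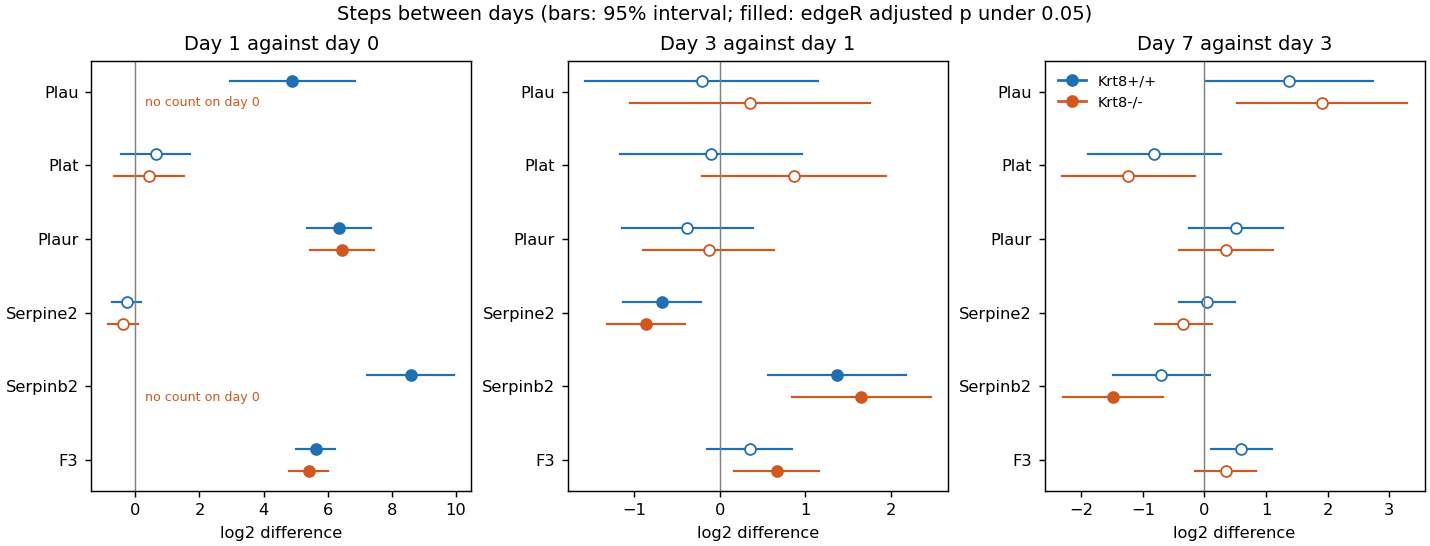
Log2 differences of the 6 members between successive days, in Krt8+/+ (blue) and Krt8-/- cells (orange), with 95% intervals; filled points passed edgeR's test at an adjusted p under 0.05. Plau and Serpinb2 have no point for the first step in Krt8-/- cells because they had no count on day 0. The first step carries the large rises, up to 8.59 for Serpinb2, and the differences of the later steps are smaller.

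Compared per length, as CPM divided by the kilobases of merged exon (RPKM), the order of the members changed with culture. In fresh Krt8+/+ AEC2s the means of 3 libraries were 16.7 RPKM for Serpine2 and 12.3 RPKM for F3, followed by Plat at 1.73, Plaur at 1.49, Serpinb2 at 0.119 and Plau at 0.0511 RPKM. On day 7 in Krt8+/+ cells F3 led at 1175 RPKM, then Plaur at 141, Serpinb2 at 71.6, Serpine2 at 8.95, Plau at 4.26 and Plat at 1.45 RPKM. Krt8-/- cells had the same order on day 7, from 1348 RPKM for F3 to 1.35 RPKM for Plat. Neighbours in this order overlapped in places. On day 7 in Krt8+/+ cells Plau ranged from 1.40 to 6.27 RPKM over the 3 libraries, which overlapped both Plat (1.24 to 1.78 RPKM) and Serpine2 (6.16 to 11.2 RPKM), while F3, Plaur and Serpinb2 were apart from each other and from the rest. On day 0 Plat and Plaur overlapped, as did Serpinb2 and Plau. Ranked among all detected genes by mean RPKM, F3 moved from 4318 on day 0 to 56 on day 1 and 16 on day 7 in Krt8+/+ cells, and from 3493 to 49 and 12 in Krt8-/- cells. Plaur moved from 11819 to 329 in Krt8+/+ cells, and Plau was still at 8136 on day 7. RNA of the receptor was above that of its ligand, per length, in every cultured library. Merged exons weigh most on Serpine2, whose mean was 40.7 RPKM on day 0 and 21.9 RPKM on day 7 in Krt8+/+ cells with the longest transcript as the length.

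Between the genotypes none of the 6 members passed the test on day 0 (0.0277% of all genes called), on day 1, 3 or 7 (0.0166% on each day), over days 1 to 7 (0.0277%) or in the test of genotype by day (0.00554%). DESeq2 called none either. At an unadjusted p under 0.05 edgeR had no member on days 0, 1 and 3 or in the test of genotype by day. It had 1 on day 7 (Serpine2) and 2 over days 1 to 7 (F3 and Serpine2). Of all 18046 genes, 479, 638, 452 and 255 were under it on days 0, 1, 3 and 7, 520 over days 1 to 7 and 268 in genotype by day. DESeq2 had 2 members each on day 0, on day 7 and over days 1 to 7. It had 1 in genotype by day and 0 on days 1 and 3. Of all 18046 genes DESeq2 had 534, 692, 505 and 303 on days 0, 1, 3 and 7, 553 over days 1 to 7 and 412 in genotype by day. With isolation as a block edgeR called no member. At an unadjusted p under 0.05 that fit had 2 members on day 0 and 1 each on days 3 and 7. It had 3 over days 1 to 7, and none on day 1 or in genotype by day. Of all 18046 genes the block fit had 591, 749, 584 and 345 on days 0, 1, 3 and 7, 720 over days 1 to 7 and 332 in genotype by day. With so few genes called between the genotypes in all, a missing call says little about the members, and the intervals are given. Over days 1 to 7, weighted as the area under the curve, the log2 difference of Krt8-/- from Krt8+/+ cells was 0.46 for Plaur (95% interval -0.02 to 0.93, unadjusted p = 0.0553, edgeR adjusted p = 1). Plaur was higher in Krt8-/- cells in 3 of 3 isolations on each of days 1, 3 and 7, although the groups overlapped on each day. F3 differed by 0.31 over the same days (95% interval 0.01 to 0.62, unadjusted p = 0.0433, edgeR adjusted p = 1). Serpine2 was lower by -0.57 on day 7 (95% interval -1.03 to -0.11, unadjusted p = 0.0152, edgeR adjusted p = 1), in 3 of 3 isolations, with overlapping groups. Serpinb2 on day 7 had no overlap, at 255, 125 and 125 CPM in Krt8+/+ and 89.2, 91.2 and 117 CPM in Krt8-/- cells, and a log2 difference of -0.76 (95% interval -1.56 to 0.03, edgeR adjusted p = 1). Without isolation 1, in which sex and genotype were not matched, that difference was -0.26. In the same fit the day 7 difference of Serpine2 was -0.37, and the differences over days 1 to 7 were 0.59 for Plaur and 0.24 for F3. Plat differed by 0.02 over days 1 to 7 (95% interval -0.65 to 0.68) and Plau by -0.34 (95% interval -1.19 to 0.51).

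**Figure D3:**
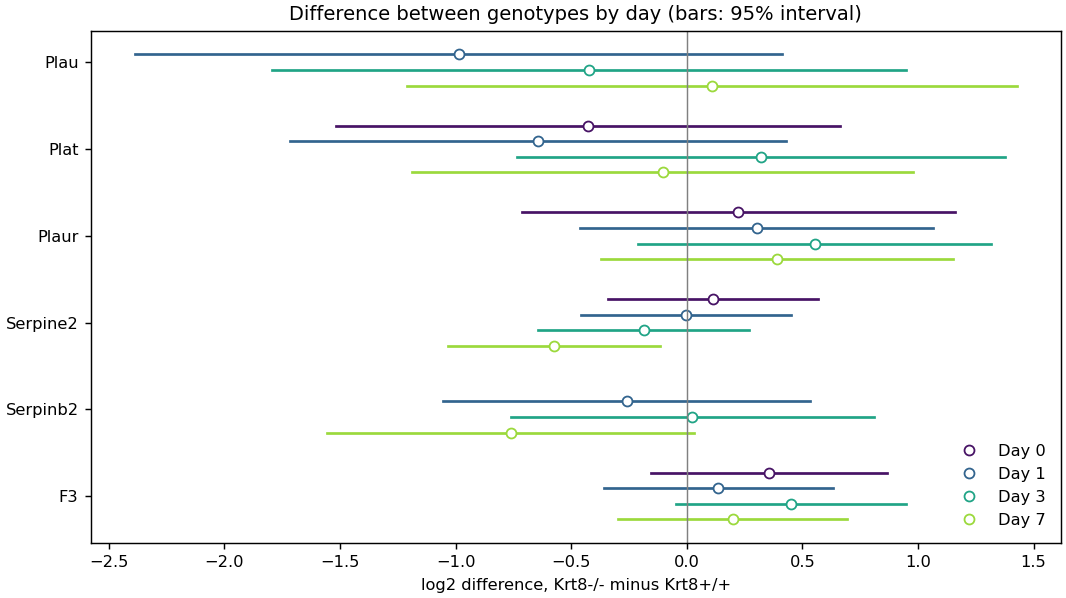
Log2 difference of Krt8-/- from Krt8+/+ cells for the 6 members on days 0, 1, 3 and 7, with 95% intervals; no point passed the test. Plau and Serpinb2 are not drawn on day 0, where the Krt8-/- libraries had no count. The intervals of Plaur and F3 lie mostly to the right of 0 and those of Serpine2 and Serpinb2 on day 7 mostly to the left.

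No read was counted for the substrate. Plg, the gene of plasminogen, had 0 counts in all 24 libraries, which allows up to 0.154 to 0.295 CPM in a library by the floor of 3 counts, and Serpina5, the protein C inhibitor, likewise had 0. Of the 6 genes listed as plasmin and other inhibitors, only Serpini1, the neuroserpin gene, had enough counts to be tested. In Krt8+/+ cells it was at 0.111 to 2.67 CPM on day 0 and 3.57 to 5.70 CPM on day 7 (edgeR adjusted p = 0.0539). Within Krt8-/- cells day 7 was called higher than day 0 (log2 difference 2.79, edgeR adjusted p = 0.00407). Serpinf2, the gene of antiplasmin, had at most 6 counts in any group.

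Of 12 genes for plasminogen receptors, partners of uPAR and clearance, 11 were tested, and 10 rose and 1 fell from day 0 to day 7 in Krt8+/+ cells, where 28.6% and 30.2% of all genes rose and fell, and the same counts were found in Krt8-/- cells. Eno1, the glycolytic enzyme enolase that also binds plasminogen at the cell surface, rose from 148 to 187 to 2627 to 2909.6 CPM (log2 difference 4.10, edgeR adjusted p = 6.6e-13). Its near-identical copy Eno1b rose too, from 5.12 to 85.6 CPM in the mean of 3 libraries, and reads can be split between them, so the Eno1 value is uncertain. The integrin subunits Itgb3 and Itgb5, which pair with Itgav to bind vitronectin as uPAR does, rose by log2 differences of 4.06 and 3.18 (edgeR adjusted p = 1.0e-09 and 7.3e-09). Lrp1, which takes up inhibitor-bound urokinase with uPAR, rose by 2.84 (SE 0.73, edgeR adjusted p = 0.0021). On day 7 it was at 140.3, 128 and 265 CPM in isolations 1, 2 and 3 of Krt8+/+ cells, highest in isolation 3, as were the fibroblast markers, whose part in it was not tested. The gene that fell was Vldlr, a relative of Lrp1, from 81.1 to 86.2 to 15.6 to 28.0 CPM.

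Of 16 coagulation genes, 14 were tested, and 4 rose and 2 fell from day 0 to day 7 in each genotype. Over all genes 28.6% rose in each genotype and 30.2% (Krt8+/+) or 29.9% (Krt8-/-) fell, so the share of coagulation genes that rose was near that of all genes. Tfpi, the inhibitor of tissue factor and activated factor X, rose with a log2 difference of 4.59 (SE 0.69, edgeR adjusted p = 9.9e-06), and its relative Tfpi2, which inhibits plasmin among other proteases, with 5.09 (SE 0.96, adjusted p = 1.2e-04). Tfpi was at 48.9, 48.3 and 95.3 CPM in isolations 1, 2 and 3 of Krt8+/+ cells and 43.7, 27.6 and 113 CPM in Krt8-/- cells on day 7, highest in isolation 3, where fibroblast markers were also highest and F3 lowest. Procr, the endothelial protein C receptor, rose and then fell, at 341, 299 and 491 CPM on day 1 and 94.4, 67.3 and 59.3 CPM on day 7 in Krt8+/+ cells. The log2 difference from day 1 to day 3 was -1.87 (edgeR adjusted p = 6.3e-05). Its lowest level in any of the 24 libraries was 4.87 CPM, below each of the day 7 values. The fibrinogen chain genes Fga and Fgg, at 0.332 to 1.62 and 0.775 to 6.42 CPM in fresh Krt8+/+ cells, had no count on day 7. F7, the partner of tissue factor, was at 10.8, 3.57 and 0 CPM in isolations 1, 2 and 3 of Krt8+/+ cells on day 7, which is the order of the macrophage marker sums of 102, 30.7 and 7.09 CPM, and their part in it was not tested. Between the genotypes, none of the 26 tested genes of these lists was called on any day by edgeR or DESeq2. At an unadjusted p under 0.05 by edgeR there was 1, on day 1, where 638 of all 18046 genes were under it.

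**Figure D4:**
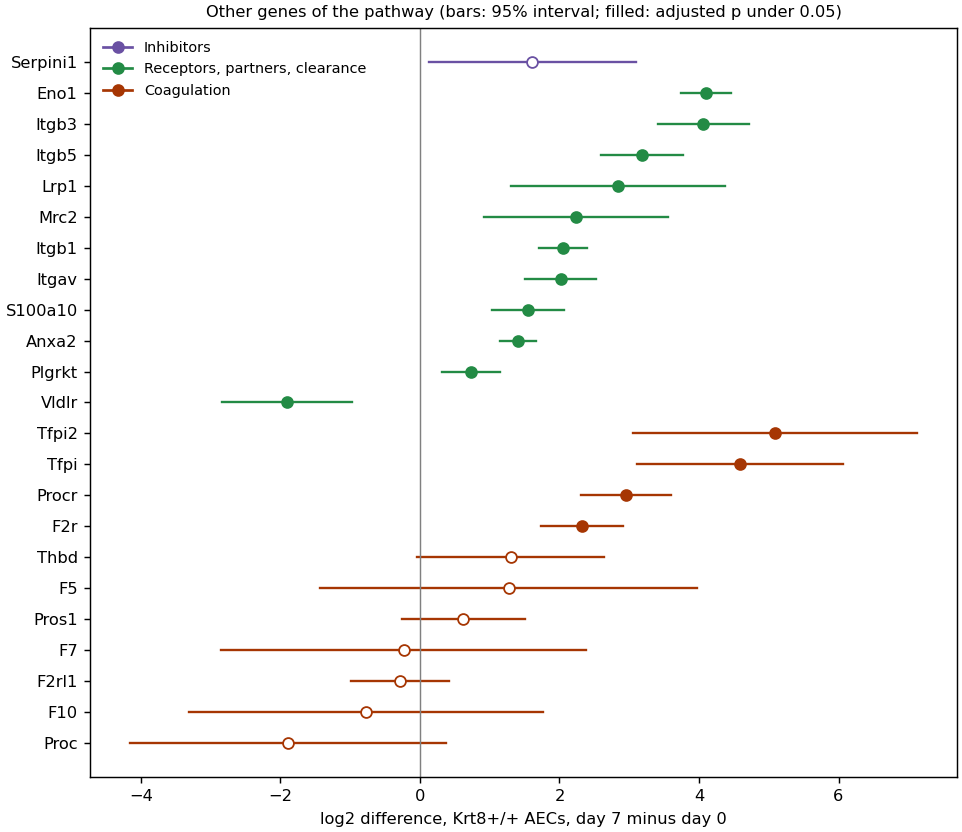
Log2 difference of day 7 from day 0 in Krt8+/+ cells for the other pathway genes tested, with 95% intervals; filled points passed edgeR's test at an adjusted p under 0.05, and genes with no count in a group are left out. Most receptor and partner genes lie to the right, Vldlr to the left, and the coagulation genes are spread on both sides.

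The genes whose log2 CPM was most like that of a member over the 24 libraries, by Pearson's r, were Anxa1, Trim16 and Sfn for F3 (0.991 to 0.995), Ets1, Sfn and Abcb1b for Plaur (0.984 to 0.987), Itga2, Lif and Ywhah for Serpinb2 (0.978 to 0.984), and Mirt1, A730020M07Rik and Cpa4 for Plau (0.961 to 0.966). Serpine2 was most like Btg1, Slc1a5 and Ly6d (0.936 to 0.940). Plat had no gene as close, with Tmem108 at 0.794 as the nearest. These values describe libraries that share days and isolations, and no correlation was computed within the cultured libraries alone. By rank correlation, the 3 nearest genes of each of Plau, Plaur, Serpinb2 and F3 shared none with those named here.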

How the data were processed

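RNA-Seq libraries of 24 mouse samples were used, with groups of genotype and day taken from the labels. The authors deposited estimated counts per gene as whole numbers, without scaling to depth or length. The submitters' processing notes name cutadapt 2.3, STAR 2.7.8a, RSEM 1.3.3 and GRCm38, without their roles; RSEM gives fractional estimates, so the values would have been rounded before deposit, and the strand setting is not given in the sources used here. Estimated counts split reads among similar genes, which could affect Eno1 and Eno1b. The values were used as deposited. Symbols came from GENCODE M21 for 55154 of 55421 identifiers, and identifiers without a symbol held at most 0.0644% of a library's counts.

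The fits used edgeR 4.0.16 (with limma 3.58.1, in R 4.3.3), and DESeq2 1.42.0 served as an alternative. A filter on low counts (filterByExpr, minimum count 10, minimum total 15) kept 18046 genes. They were scaled with TMM and fitted in 1 quasi-likelihood model of 8 groups with 16 residual degrees of freedom. P values were adjusted by Benjamini-Hochberg over all genes tested, with a threshold of 0.05. Days 1, 3 and 7 were weighted 0.167, 0.5 and 0.333 for the comparison over days 1 to 7. Standard errors (SE) were derived from the test, as the absolute log2 difference divided by the square root of edgeR's F statistic. Intervals (95%) use these and the 16 residual degrees of freedom, so they need not match the p values exactly. A floor of 3 counts over a group stands for a group with no count and covers counting error only. Correlations used log2 CPM with a prior count of 2.

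Each date in the labels gave 1 library of every genotype and day, so the libraries are paired by date. That a date marks an isolation was taken as given. The correlation of paired deviations from group means was 0.405 to 0.508 between genotypes on day 1 and -0.0345 to 0.383 for day 3 against day 1 in Krt8+/+ cells. No 2 libraries of a group matched within sampling noise in a chi-square check. Alternatives were DESeq2's size factors and test, no filter, isolation as a block, leaving out isolations in turn, longest transcript lengths and rank correlation. The procedure was also run on simulated data that held no shared effect of an isolation, so that run cannot speak to the pairing.

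The members and the gene and marker lists were chosen with earlier results of these data known. All members are named, and of each pathway list up to 4 genes with the largest change from day 0 to day 7 in Krt8+/+ cells among those past 0.05 with at least 1 CPM in a group; other genes named were chosen after their values were seen. Nearest genes are the 3 with the highest r. One gene of the inhibitor list is not reported here.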

Additional observations from a re-analysis of the deposited data

How the results depend on the processing

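With 2 libraries a group once an isolation is left out, fewer calls can be made. Of 588 values of the members under an alternative, 552 kept their direction and side of the threshold, 12 lost the call, 5 gained it and 19 changed sign, each in a difference that was not called. The rises of Plaur and F3 on days 1 and 7 against day 0 stayed called under each alternative. Those of Plau and Serpinb2 did too, but they passed the filter only through the cultured groups. Against day 0 they could only come out higher, so their staying called says little. Isolation as a block, with the pairing by date, raised the members called from day 3 to day 7 in Krt8-/- cells from 1 to 3 and changed no other count of members called. No filter and the DESeq2 test both gave 2 there. Genes called in all at this step were 1903 in the main fit, 2251 with the block and 2512 with DESeq2, each of 18046. Without the filter they were 1794 of 32971. With an isolation left out, the members called were 1 each time for day 3 against day 1 in Krt8+/+ cells, 1 to 2 in Krt8-/- cells, and 0 to 2 for day 7 against day 3 in Krt8-/- cells. Genes called in all were then 2614 to 3085 (4740 in full) and 325 to 572 (1188) for day 3 against day 1 and day 7 against day 3 in Krt8+/+ cells, 1842 to 2691 (4252) and 834 to 969 (1903) in Krt8-/- cells, 2 to 5 between genotypes on days 0, 1 and 7, 3 to 5 on day 3, and 0 each time for genotype by day (1 in full). Between genotypes, genes called on days 0 and 1, over days 1 to 7 and for genotype by day were 5, 3, 5 and 1, and became 10, 6, 11 and 2 without the filter and 9, 5, 17 and 3 with DESeq2, which gave 8 on day 3 (3 by edgeR); the block gave 9 over days 1 to 7. Of the changes of sign, the block gave log2 differences of 0.0269 for Plau and 0.0252 for Plat for day 3 against day 1 in Krt8+/+ cells, and no filter 0.0037 for Serpine2 between genotypes on day 1. The others came with an isolation left out. In Krt8+/+ cells, Serpine2 ranged from -0.37 to 0.0028 for day 1 against day 0 and from -0.12 to 0.16 for day 7 against day 3, Plau from -0.46 to 0.54 for day 3 against day 1, and Plat from -0.39 to 0.56 for day 3 against day 1 and from -0.62 to 0.61 for day 7 against day 0. In Krt8-/- cells, F3 ranged from -0.11 to 0.70 for day 7 against day 3 and Plat from -0.25 to 0.64 for day 7 against day 0. Between genotypes, Serpine2 gave -0.0626 to 0.20 (day 0), -0.0202 to 0.0233 (day 1) and -0.42 to 0.0115 (day 3), Serpinb2 gave -0.16 to 0.15 (day 3), and ranges ran for Plau from -0.30 to 0.48 and F3 from -0.0040 to 0.29 on day 7, and Plat from -0.11 to 0.21 over days 1 to 7. The longest transcript as the length gave 184 RPKM for Plaur, 2.24 for Plat, 21.9 for Serpine2 and 1586 for F3 on day 7 in Krt8+/+ cells. Apart from fewer libraries, the cause of these changes was not tested.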
